A study of Mus musculus with 7 samples.

Results

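Aquaporins are membrane channels that let water, and in some members glycerol or hydrogen peroxide, cross a cell along an osmotic or concentration gradient. The growing antral follicle fills with fluid, and water channels of granulosa, theca and vascular cells are part of how that fluid is thought to be formed. The aquaporins described here are 9 genes, Aqp1, Aqp2, Aqp3, Aqp4, Aqp5, Aqp7, Aqp8, Aqp9 and Aqp11, which were taken by name from the 55487 gene rows of the ovarian count tables, where GENCODE M21 (mm10) gives 1 identifier for each. The members were chosen by gene name while the measured CPM and log2 fold changes of PAMH F3 against CNTR ovaries were known, so the differences between these groups are given as a description that supports nothing. The annotation holds 12 aquaporin genes under these names and Mip, Aqp6 and Aqp12, which are not on the list.

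Ovaries of C57BL/6J females at diestrus on postnatal day 60 were sequenced as poly(A) RNA in 7 libraries. The 3 CNTR libraries came from F1 daughters of dams injected with PBS late in gestation. The 4 PAMH F3 libraries came from mice of generation 3, descended from F0 dams given AMH at 0.12 mg/kg per day over the same days, through F1 and F2 parents of that lineage that were not injected. The groups thus differ in generation as well as in ancestral AMH, and these cannot be told apart.

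Reads counted on genes ran from 32158174 to 35485021 per library. Markers of the ovary were present in every library, with the oocyte gene Gdf9 at 68.0 to 109 CPM and the granulosa gene Amh at 68.0 to 140 CPM, where CPM is a gene's count scaled to library size with TMM factors. The theca hormone Insl3 was near 0, from 0 to 0.15 CPM, while Cyp17a1 was at 141 to 428 CPM. The oviduct glycoprotein gene Ovgp1, a marker of oviduct and not of ovary, was at 2394 to 6172 CPM, and the adipocyte hormone Adipoq was at 20.2 to 185 CPM. In these bulk samples, fewer cells of a type and less RNA per cell cannot be told apart. CNTR replicate 2 stood apart in GC content, with a slope of log2 level on gene GC of 0.30 for each 10% step, against -0.12 to 0.05 elsewhere.

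The aquaporin transcripts together took between 0.00987% and 0.0165% of the gene counts of a library, and the family was led by a few members. Per kilobase of exon, Aqp1, Aqp8 and Aqp5 held between 95.5% and 97.5% of the summed level of the 9 genes in each library, and Aqp1 alone between 52.9% and 75.6%. Mean levels over the 7 libraries were 35.9 ± 5.98 CPM per kb (SD, n = 7) for Aqp1, 10.4 ± 4.67 for Aqp8 and 9.45 ± 3.10 for Aqp5. The next member was Aqp4, at 0.57 ± 0.19 CPM per kb. Aqp7 (0.34 ± 0.16), Aqp11 (0.32 ± 0.03), Aqp9 (0.30 ± 0.06), Aqp2 (0.26 ± 0.11) and Aqp3 (0.20 ± 0.07) followed close to each other on the same scale.

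Levels of neighbors in this order were compared within libraries, as log2 ratios of CPM per kb, by an exact paired permutation test (two-sided) with p values adjusted over the 8 pairs, where the order itself was set by the same values. Of the 8 steps, 3 passed the threshold, and in each of them the higher gene was higher in 7 of 7 libraries (exact permutation p = 0.0156, the smallest that 7 libraries allow, and adjusted p = 0.0417). With any library left out, 0 of the 8 steps passed. The 3 steps then stayed at p = 0.03125 (exact permutation test), the smallest that 6 libraries allow. Adjusted over the 8 pairs, with only these 3 steps at that p, this is 0.0833. They could not pass at any size of ratio, so leaving out a library does not test them. The 3 steps that passed with 7 libraries were Aqp1 over Aqp8, Aqp5 over Aqp4 and Aqp4 over Aqp7. Their mean log2 ratios were 1.91 ± 0.83 (SD, n = 7), 4.06 ± 0.89 and 0.89 ± 1.07. That of Aqp4 over Aqp7 was highest in PAMH F3 replicate 4, at 3.29, where Aqp7 had 7 counts. Without this library its mean was 0.49 ± 0.13 (SD, n = 6). Aqp8 and Aqp5 could not be ordered (mean log2 ratio 0.08, range -0.78 to 0.83, exact permutation adjusted p = 0.821), and Aqp5 was the higher of the pair in CNTR replicates 1 and 3. The 4 steps from Aqp7 down to Aqp3 did not pass either, with exact permutation adjusted p values from 0.375 to 0.891. The order also depended on the length used, since the union of exons and the longest transcript are 9418 and 5798 bases for Aqp11, 4143 and 2765 for Aqp9 and 2599 and 1797 for Aqp5, but 1419 by both for Aqp2. With the longest transcript as length, Aqp11 over Aqp9 and Aqp9 over Aqp2 also passed (exact permutation adjusted p = 0.025 for each), and the mean log2 ratio of Aqp8 over Aqp5 turned to -0.37.

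**Figure D1:**
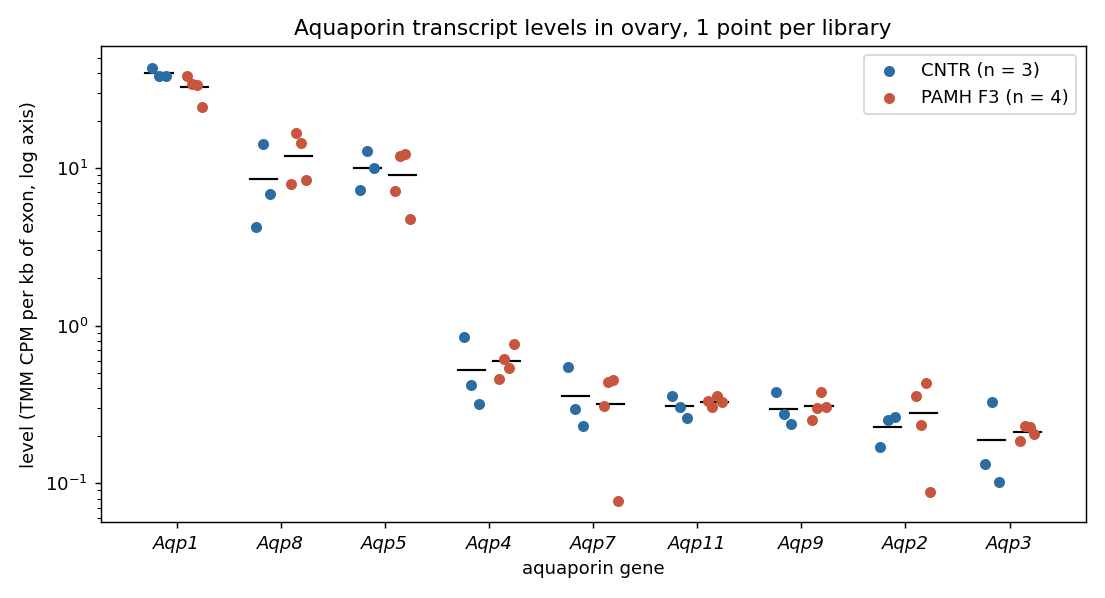
Levels of the 9 aquaporins in TMM CPM per kb of exon on a log axis, in order of the mean, with 1 point for each CNTR (blue) and PAMH F3 (red) library and a black bar at the group mean. Aqp1, Aqp8 and Aqp5 lie above the other genes, and the groups overlap in every gene but Aqp1.

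In the comparison of PAMH F3 with CNTR ovaries, Aqp8 had the largest log2 fold change of the family and Aqp1 was the lower member with groups that did not overlap. Counts of all 18779 genes with enough reads, the 9 aquaporins included, were tested with edgeR's quasi-likelihood F test, in a model with 2 surrogate variables (terms that sva derives from the count matrix to absorb variation not due to group). With p values adjusted over all genes and a threshold of 0.05, edgeR called 0 of the 9 aquaporins and 0 of the 18779 genes (0%), with the surrogate variables and without. DESeq2 called 1 aquaporin, Aqp8, and 0.533% of these genes when given the surrogate variables, and 0 aquaporins and 0.0266% of genes when not. At an unadjusted p under 0.05, edgeR's test gave 2 of the 9, Aqp8 higher and Aqp1 lower, against 7.64% of all genes (3.75% higher and 3.89% lower), and without surrogate variables 0 of the 9 against 3.95%. Over the 9 genes, 6 had a positive log2 fold change and 3 a negative one, with a median of 0.06, and the median over all genes tested was 0.00.

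Aqp8 (ENSMUSG00000030762, chromosome 7 from 123462291 to 123468004, mm10) encodes a channel for water, ammonia and hydrogen peroxide that is known from granulosa cells of the mouse ovary. Its level was 6.72, 22.6 and 10.8 CPM in CNTR replicates 1, 2 and 3. In PAMH F3 replicates 1 to 4 it was 12.6, 26.3, 22.9 and 13.3 CPM. The CNTR libraries spread over a wider ratio than the groups differed, since CNTR replicate 2 lay among the upper PAMH F3 libraries and CNTR replicate 1 was below all others. Mean CNTR level was 13.4 ± 8.24 CPM (SD, n = 3), and that of PAMH F3 was 18.7 ± 6.88 CPM (SD, n = 4), a ratio of 1.40. Aqp8 had a fitted log2 fold change of 0.98 with the surrogate variables (standard error 0.17, adjusted p = 0.365 in edgeR) and of 0.49 without them (standard error 0.41, adjusted p = 0.997 in edgeR). The part of the surrogate variables in this change was not tested. Leaving out CNTR replicate 1 took it to 0.24 with surrogate variables and to 0.17 without, and leaving out CNTR replicate 2 took it to 1.14 and 1.09. The second surrogate variable was lowest in CNTR replicate 1, at -0.62, and highest in CNTR replicates 2 and 3, at 0.53 and 0.50.

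Aqp1 (ENSMUSG00000004655, chromosome 6 from 55336432 to 55348555) encodes the water channel of capillary endothelium and red blood cells. It was at 113.9, 101.2 and 101.1 CPM in the CNTR libraries and at 100.9, 90.3, 88.7 and 64.2 CPM in PAMH F3 replicates 1 to 4. All PAMH F3 libraries lay below all CNTR libraries in TMM CPM, which was also so for 2.40% of all genes tested, and 0 members lay wholly above (1.85% of all genes). The gap was narrow, from 101.14 to 100.88 CPM, and it closed with median-ratio size factors and with library totals alone, where 0 of the 9 members had groups that did not overlap. The means were 105 ± 7.38 CPM (SD, n = 3) and 86.0 ± 15.5 CPM (SD, n = 4). Its log2 fold change of -0.34 (standard error 0.13, adjusted p = 0.631 in edgeR) was negative in all 24 alternative fits, from -0.42 to -0.17.

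Beside Aqp1, 9 of the 10 endothelial markers were lower in PAMH F3, 4 of them at an unadjusted edgeR p under 0.05 (Pecam1, Cldn5, Emcn and Plvap) and 0 at the adjusted threshold. Among all 18779 genes tested, 9078 had a negative log2 fold change and 3.89% were lower at an unadjusted p under 0.05. The median log2 fold change of this list was -0.19. Summed over the list, endothelial markers were at 376 to 389 CPM in CNTR and at 302 to 410 CPM in PAMH F3, and all 10 were detected in every library. Of the 8 erythroid markers, 5 could be tested and all 5 had a negative log2 fold change, with summed levels of 15.7 to 50.2 CPM in CNTR and 17.3 to 36.7 CPM in PAMH F3. The part of these cells in the Aqp1 difference was not tested.

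Aqp5 (ENSMUSG00000044217, chromosome 15 from 99590782 to 99594829) encodes the apical water channel of secretory epithelia such as salivary gland. Its level was 19.0, 33.4 and 25.9 CPM in CNTR and 18.6, 30.8, 31.9 and 12.3 CPM in PAMH F3, so that the groups lay across each other. The lowest value was that of PAMH F3 replicate 4. Its log2 fold change was 0.01 with surrogate variables (standard error 0.23, adjusted p = 0.996 in edgeR) and -0.16 without them. Of 24 alternatives, 13 gave a positive value and 11 a negative one.

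The windows around the start sites of these abundant members are shown because the 3 genes, alike in carrying most of the family's transcripts, differ in promoter composition. RefSeq promoters (GRCm38.p6, 250 bases before to 50 after the RefSeq start) were found for 8 of the 9 genes, in 10 windows. RefSeq starts can differ from the GENCODE gene starts given above. The Aqp1 window ends before the GENCODE start at 55336432, and the Aqp5 window begins beside the GENCODE start at 99590782. Positions below are from the RefSeq start. In capitals are the E box CACGTG and the GC box GGGCGG, searched on both strands. They are written on the gene's strand from 5′ to 3′.
Aqp8, chr7:123462044-123462343, plus strand: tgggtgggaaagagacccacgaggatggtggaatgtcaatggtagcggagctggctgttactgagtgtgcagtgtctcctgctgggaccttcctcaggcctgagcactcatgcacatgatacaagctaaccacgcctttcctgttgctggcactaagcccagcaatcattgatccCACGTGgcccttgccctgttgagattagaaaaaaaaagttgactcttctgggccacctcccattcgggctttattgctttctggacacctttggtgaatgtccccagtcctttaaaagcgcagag
Aqp1, chr6:55336049-55336348, plus strand: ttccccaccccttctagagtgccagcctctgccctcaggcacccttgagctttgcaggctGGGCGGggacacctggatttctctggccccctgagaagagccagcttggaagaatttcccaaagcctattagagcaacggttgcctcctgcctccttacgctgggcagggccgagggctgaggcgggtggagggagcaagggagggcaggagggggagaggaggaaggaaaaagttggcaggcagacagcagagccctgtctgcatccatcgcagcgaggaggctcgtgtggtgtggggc
Aqp5, chr15:99590778-99591077, plus strand: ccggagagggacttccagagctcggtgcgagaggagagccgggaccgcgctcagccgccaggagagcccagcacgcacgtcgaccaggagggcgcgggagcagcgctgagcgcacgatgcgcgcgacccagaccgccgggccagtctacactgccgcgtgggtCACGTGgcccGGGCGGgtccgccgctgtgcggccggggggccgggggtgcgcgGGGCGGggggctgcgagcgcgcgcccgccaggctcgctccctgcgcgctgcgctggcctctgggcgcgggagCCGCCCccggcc
The Aqp5 window is the richest in CpG of the 10, with 46 CpG and 79.7% GC, whereas the Aqp1 window has 8 CpG (62.7% GC) and the Aqp8 window 6 (52.0% GC). The Aqp8 window holds 1 E box, at -75 from the start, a motif found in 7.17% of the 32544 mouse promoter windows of the same length, and the windows of Aqp5 and Aqp2 hold it too. The GC box, present in 35.9% of the windows, is in those of Aqp1, Aqp5 and Aqp3. The other motifs searched are the TATA box TATAAA, found in 13.6% of windows and among members in that of Aqp3 alone, and TGGAAA, the core of the element bound by the osmotic stress factor NFAT5, found in 21.5% and among members in those of Aqp7 and Aqp9. The CCAAT box (37.4%), the cAMP response element TGACGTCA (1.80%), the NR5A site CAAGGTCA (1.53%), the palindromic estrogen response element (0.0707%) and the DR1 nuclear receptor element (0.0399%) matched no member window. These matches are descriptions of the letters in a window, and no binding or methylation was measured here.

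Aqp4 and Aqp2 are the other channels selective for water. Aqp4 (ENSMUSG00000024411, chromosome 18 from 15389496 to 15410982), best known from astrocyte end feet, was at 5.24, 2.61 and 1.98 CPM in CNTR and at 2.86, 3.85, 3.38 and 4.73 CPM in PAMH F3. The CNTR libraries held both the highest and the lowest value, and the log2 fold change of 0.07 (standard error 0.27, edgeR adjusted p = 0.974) changed sign in 4 of 24 alternatives. Aqp2 (ENSMUSG00000023013, chromosome 15 from 99579055 to 99584547), the vasopressin-regulated channel of the kidney collecting duct, had 8, 12 and 12 counts in CNTR and 18, 11, 22 and 4 counts in PAMH F3. At this depth a count of 4 has an exact Poisson 95% interval from 1.09 to 10.2, which covers counting error only, and the log2 fold change of 0.42 had a standard error of 0.53 (edgeR adjusted p = 0.888). Avpr2, the vasopressin receptor that acts on Aqp2 in kidney, was between 0 and 0.12 CPM.

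Aqp2, Aqp5 and Aqp6 lie side by side on the same strand of chromosome 15, with 6234 bases between Aqp2 and Aqp5 and 6570 between Aqp5 and Aqp6. Their levels were far apart all the same. Aqp5 had between 391 and 1142 counts in a library, Aqp2 between 4 and 22, and Aqp6, an intracellular channel of the kidney, between 1 and 14. Across the 7 libraries the log2 CPM of Aqp2 and Aqp5 had a Pearson r of 0.70.

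The aquaglyceroporins Aqp3, Aqp7 and Aqp9 also pass glycerol. Aqp7 (ENSMUSG00000028427, chromosome 4 from 41033074 to 41048139) is the channel through which adipocytes release glycerol from lipolysis. It was at 1.54, 0.84 and 0.65 CPM in CNTR and at 0.88, 1.23, 1.28 and 0.22 CPM in PAMH F3. CNTR replicate 1 was highest and PAMH F3 replicate 4, with 7 counts, was lowest, a ratio of 7.0. Its log2 fold change was -0.27 (standard error 0.40, adjusted p = 0.915 in edgeR), and leaving out CNTR replicate 1 turned it to 0.21.

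The adipocyte gene Adipoq had its highest and lowest levels in the same libraries as Aqp7. It was at 185, 59.7 and 47.7 CPM in CNTR and at 52.1, 82.8, 112 and 20.2 CPM in PAMH F3. Not all markers of the list did so. Pparg was highest in PAMH F3 replicate 4, at 54.3 CPM. Adipor2, which made up 29.4% of the summed list on average, was highest in CNTR replicate 3 (269 CPM) and lowest in PAMH F3 replicate 3 (217 CPM). All 10 adipocyte markers were detected in every library, and their sum ran from 721 to 1543 CPM in CNTR and from 455 to 1174 CPM in PAMH F3. In PAMH F3, 9 of the 10 were lower, with a median log2 fold change of -0.55 and 0 at an unadjusted p under 0.05. A negative log2 fold change was found for 9078 of all 18779 genes tested. Across the 7 libraries, which share depth and dissection, Aqp7 followed the mean centered log2 CPM of this list with a Pearson r of 0.95 and a Spearman rho of 0.89. Without PAMH F3 replicate 4 and CNTR replicate 1, the libraries farthest from the median of the list, r was 0.85 over 5 libraries. With the log2 of the summed level in place of the mean, the r of Aqp7 was 0.90 with adipocyte and 0.98 with ovarian surface epithelium markers, so that the list it followed most closely depended on the measure. The part of adipose tissue in the levels of Aqp7 was not tested.

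Aqp3 (ENSMUSG00000028435, chromosome 4 from 41092722 to 41098183), a channel of epidermis and collecting duct, had 8, 20 and 6 counts in CNTR and 12, 14, 15 and 12 counts in PAMH F3. CNTR replicate 2 held the highest count and CNTR replicate 3 the lowest, and the fitted difference was 0.49 on the log2 scale (standard error 0.37, adjusted p = 0.804 in edgeR). Aqp9 (ENSMUSG00000032204, chromosome 9 from 71110659 to 71168682), the glycerol channel of liver, was at 1.57, 1.14 and 0.99 CPM in CNTR and at 1.05, 1.23, 1.56 and 1.25 CPM in PAMH F3. Its group means of 1.23 ± 0.30 (SD, n = 3) and 1.27 ± 0.21 CPM (SD, n = 4) were within the spread of either group, and the fitted difference was -0.0039 on the log2 scale (standard error 0.23, adjusted p = 0.998 in edgeR).

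Aqp11 (ENSMUSG00000042797, chromosome 7 from 97724006 to 97738289) encodes a divergent aquaporin of the endoplasmic reticulum. It was the steadiest member, with 79 to 120 counts in every library and a ratio of 1.38 between the highest and the lowest CPM. CNTR libraries had a mean of 2.89 ± 0.47 CPM (SD, n = 3) and PAMH F3 libraries one of 3.11 ± 0.20 CPM (SD, n = 4), for a log2 fold change of 0.06 (standard error 0.16, adjusted p = 0.965 in edgeR). For comparison, the same ratio was 1.78 for Aqp1, 2.72 for Aqp5 and 3.91 for Aqp8.

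**Figure D2:**
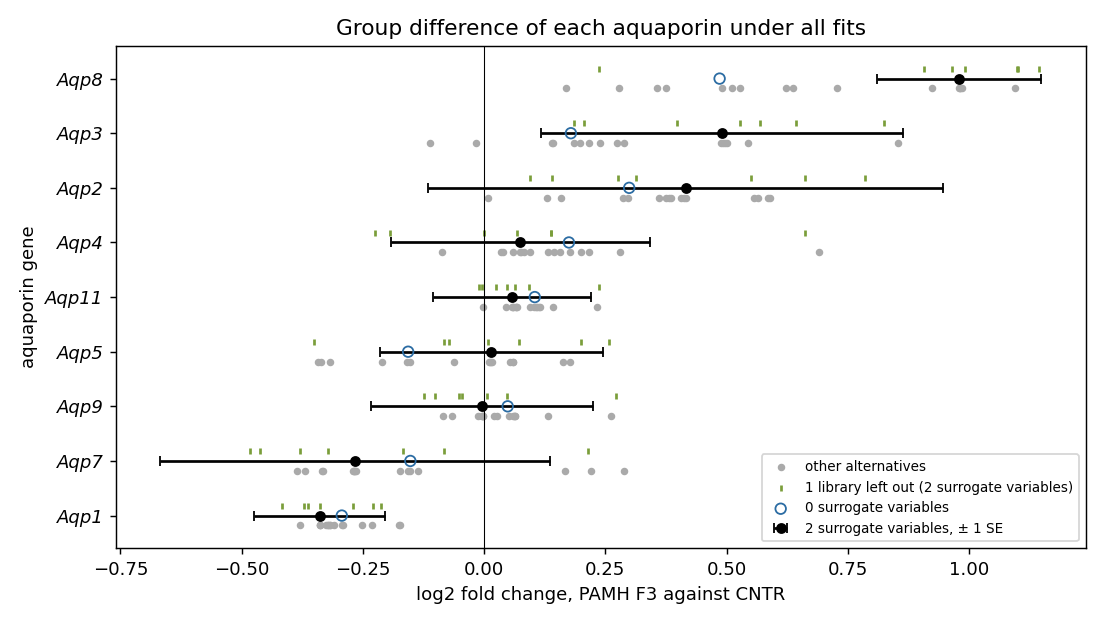
Log2 fold change of each aquaporin in PAMH F3 against CNTR. Black points with bars are the fit with 2 surrogate variables ± 1 standard error, open circles are the fit without surrogate variables, green ticks leave out 1 library each with 2 surrogate variables and gray points are the other alternatives. Aqp1 stays below 0 and Aqp8 and Aqp2 above 0 in all 24 alternatives, and Aqp8 runs from 0.17 to 1.14. Aqp2, with 4 to 22 counts in a library and a standard error of 0.53, runs from 0.0085 to 0.79. The alternatives reuse the same libraries.

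Levels of the aquaporins were also set against each other across libraries. Of the 36 pairs of aquaporins, 5 had a Pearson r over 0.7 across the 7 libraries (log2 CPM), and the median r was 0.10, with a range from -0.58 to 0.81. The 5 pairs were Aqp9 with Aqp11 (0.81), Aqp3 with Aqp8 (0.79), Aqp1 with Aqp7 (0.78), Aqp4 with Aqp11 (0.75) and Aqp4 with Aqp9 (0.74). These values describe 7 libraries of both groups together, and the same share over all pairs of genes was not computed. Pairs with Aqp2, Aqp3 or Aqp7 rest on counts as low as 4, 6 and 7 in a library.

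Against the mean log2 levels of the 11 lists of cell type markers, Aqp5 had its highest r with smooth muscle (0.88), Aqp9 with oviduct epithelium (0.81) and Aqp11 with oviduct epithelium (0.78). Against the log2 of the summed levels these r values were 0.83, 0.70 and 0.61. The value of Aqp5 rested in part on PAMH F3 replicate 4, without which r was 0.69 over 6 libraries, and it was 0.58 over 5 libraries without CNTR replicate 2 as well. Smooth muscle markers summed to between 1544 and 2337 CPM in CNTR and between 1227 and 1997 CPM in PAMH F3, with all 8 detected in every library. Oviduct markers, of which Ovgp1 made up 85.2% on average, summed to between 3352 and 5844 CPM in CNTR and between 3040 and 6915 CPM in PAMH F3. Aqp9 had an r of -0.86 with the mean log2 level of theca markers and of -0.61 with their log2 sum.

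Aqp1 had an r of 0.71 with adipocyte and 0.70 with ovarian surface epithelium markers by mean log2 level, and of 0.65 and 0.76 by log2 sum. With smooth muscle markers its r was 0.65 by mean log2 level and 0.63 by log2 sum. With the endothelial list its r was 0.64 by mean log2 level and 0.54 by log2 sum. By mean log2 level it was 0.86 over 5 libraries without PAMH F3 replicates 2 and 3, the farthest from the median of the endothelial list. Aqp8 had an r of 0.00 and a Spearman rho of 0.25 with the 10 granulosa markers. Without PAMH F3 replicate 4 alone, r was 0.08 over 6 libraries. It was 0.85 over 5 libraries without CNTR replicate 3 and PAMH F3 replicate 4, the farthest from the median of that list. The r of Aqp8 thus depended on the libraries kept. The granulosa markers were all detected and summed to between 3717 and 6175 CPM in CNTR and between 4451 and 6408 CPM in PAMH F3. Aqp8 had an r of -0.60 with luteal, -0.47 with endothelial and -0.11 with theca markers by mean log2 level, and of -0.55, -0.67 and -0.67 by log2 sum. Luteal markers summed to between 2173 and 3354 CPM in CNTR and between 1339 and 2414 CPM in PAMH F3. A negative log2 fold change was found for 5 of the 6, against 9078 of all 18779 genes tested.

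**Figure D3:**
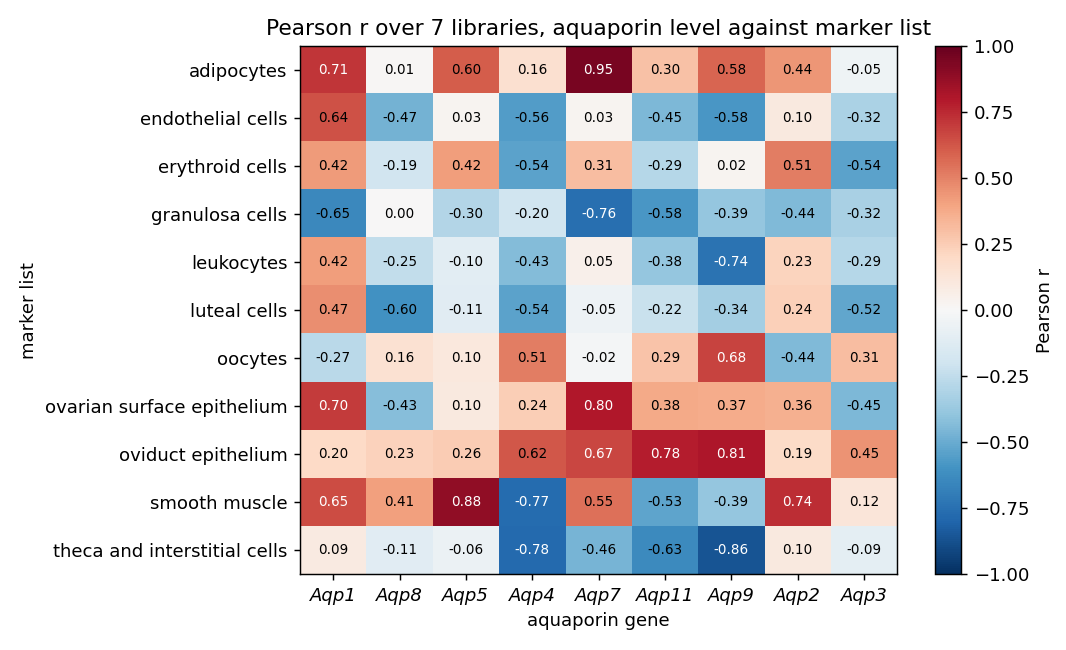
Pearson r over the 7 libraries between the log2 CPM of each aquaporin (columns) and the mean centered log2 CPM of each marker list (rows), with red for positive and blue for negative values. The highest value is that of Aqp7 with adipocytes, at 0.95.

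**Figure D4:**
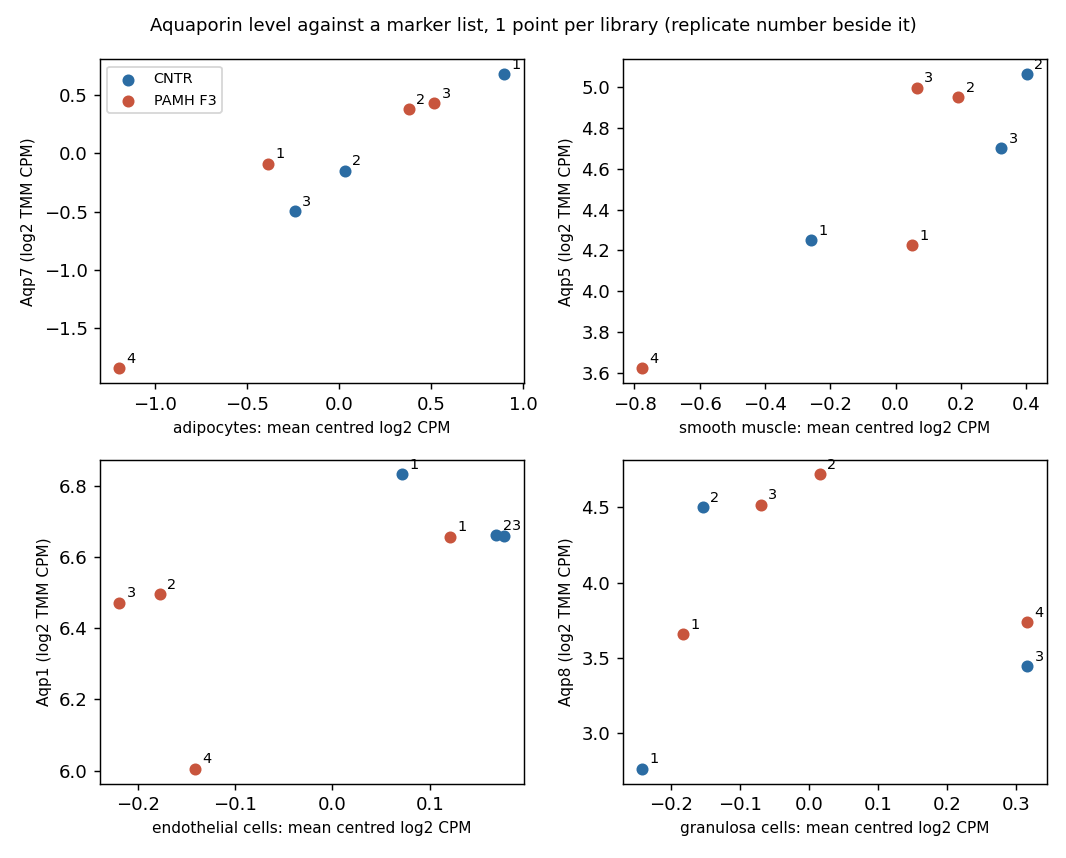
Log2 TMM CPM of Aqp7, Aqp5, Aqp1 and Aqp8 (vertical axes) against the mean centered log2 CPM of adipocyte, smooth muscle, endothelial and granulosa markers (horizontal axes), with 1 point per library and its replicate number beside it. PAMH F3 replicate 4 is lowest in Aqp7 and in adipocyte markers, and Aqp8 against the granulosa list has an r of 0.00.

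The genes whose levels most resembled an aquaporin over the 7 libraries were named by Pearson r of log2 CPM, the 3 highest for each member among all genes tested. They were Gm42998, Izumo4 and Chid1 for Aqp8, Gas1, Pctp and A730056A06Rik for Aqp1, and Ugt1a1, Mtus2 and Nptx2 for Aqp5. For Aqp7 they were Tspan2, B430119L08Rik and Scd3. For Aqp4 they were Mak, Gm11992 and Tk1, for Aqp11 Idh2, Gpat2 and 2310043M15Rik, and for Aqp9 C8b, Gm9625 and Gm14004. For Aqp2 they were Spink2, Gm36161 and Plpp6, and for Aqp3 Plpp2, Hdac3 and B3gnt4. All of these r values lay between 0.97 and 0.99, and each member had between 34 and 140 genes with an r over 0.9 among 18778. How many genes reach such an r by chance over 7 libraries was not tested. Aqp2 and Aqp3 had at most 22 and 20 counts in a library.

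Genes that work with aquaporins were read from 6 lists, in which 0 genes passed the adjusted threshold in edgeR's test. Unadjusted, 7.64% of all genes tested had a p under 0.05, with 3.75% higher and 3.89% lower. Of the other aquaporins, Mip, the lens channel, had 2 counts over all libraries and Aqp6 had 42, and neither was tested. Aqp12, known from pancreas, had 9 to 26 counts per library and a log2 fold change of -0.18 (standard error 0.35, edgeR adjusted p = 0.938).

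Among the 11 glycerol handling genes, 10 had a negative log2 fold change (median -0.07), against 9078 of all 18779 genes tested. Of these 11, 2 had an unadjusted p under 0.05, both lower. They were Agpat2, an acyltransferase of triglyceride synthesis, at 43.3 CPM in CNTR and 36.6 CPM in PAMH F3 (log2 fold change -0.29), and Pnpla2, the first lipase of triglyceride breakdown, at 82.4 and 69.3 CPM (-0.17). Next by p was the monoglyceride lipase gene Mgll, with a log2 fold change of -0.18. These genes are also used by adipocytes, whose markers are given above.

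Of 22 tested genes of osmotic stress and cell volume control, 2 had an unadjusted p under 0.05 and both were higher. Nfat5, the transcription factor of the hypertonic response, was at 213 CPM in CNTR and 231 CPM in PAMH F3 (log2 fold change 0.16), and the kinase gene Stk39, which acts on chloride cotransporters, was at 101 and 113 CPM (0.17). The related kinase gene Oxsr1 was next by p, at a log2 fold change of 0.11. The median of the list was 0.05.

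Among 23 tested trafficking and gating partners, 1 had an unadjusted p under 0.05. This was Vamp2, whose product is a vesicle protein of the docking machinery for Aqp2 in kidney, at 112 CPM in CNTR and 121 CPM in PAMH F3 (log2 fold change 0.17, standard error 0.05, edgeR adjusted p = 0.54). Avpr1a (-0.64, standard error 0.36) and Prkar2b (0.25, standard error 0.17) followed by p. Avpr1a was low, between 0.28 and 0.84 CPM in a library.

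Of 18 peroxide and redox genes, 17 had a negative log2 fold change, against 9078 of all 18779 genes tested. The median of the list was -0.07. An unadjusted p under 0.05 was reached by 5, all lower, as by 3.89% of all genes. The glutathione peroxidase gene Gpx4, which reduces lipid peroxides, was at 42.3 CPM in CNTR and 33.5 CPM in PAMH F3, Gpx3 at 1103 and 696 CPM, and the peroxiredoxin gene Prdx2 at 380 and 336 CPM. The groups did not overlap in these 3 genes, which was so for 4.25% of all genes in either direction, and their edgeR adjusted p values were 0.511 for Gpx4, 0.599 for Prdx2 and 0.629 for Gpx3.

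Among 17 tested genes of follicle ions and fluid, 3 had an unadjusted p under 0.05. Car2, a carbonic anhydrase gene, was at 32.9 CPM in CNTR and 43.8 CPM in PAMH F3 (log2 fold change 0.50, edgeR adjusted p = 0.4), and the sodium pump subunit gene Atp1b1 was at 118 and 137 CPM (0.18, edgeR adjusted p = 0.581). The tight junction gene Cldn5, an endothelial marker as well, was at 21.3 and 13.3 CPM (-0.51, edgeR adjusted p = 0.511). Its PAMH F3 libraries lay wholly below the CNTR libraries, as in 2.40% of all genes tested.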

How the data were processed

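Ovarian poly(A) RNA of 3 CNTR and 4 PAMH F3 libraries was sequenced as single reads from stranded libraries. The authors mapped reads to mm10 with STAR 2.5.3a and counted unique alignments with HTSeq 0.6.1p1 in union mode. The Ensembl release is not given in the sources used here. The deposited values are raw counts per gene, and the 5 summary lines of each library were left out. Between 37.7% and 40.7% of the alignments in a library were not unique.

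Members and gene lists were chosen with earlier results of these data known. Of 55487 identifiers, 55394 were named by GENCODE M21. TMM factors were computed over all gene rows. Genes kept by filterByExpr (minimum count 10) were tested with edgeR 4.0.16 in R 4.3.3 (quasi-likelihood F test, Benjamini-Hochberg over all genes, threshold 0.05). Surrogate variables were estimated by svaseq (sva 3.50.0), 2 of them by num.sv with 20 permutations, which left 3 residual degrees of freedom. DESeq2 1.42.0 was an alternative. Log2 CPM for correlations had a prior count of 2. The labels do not say whether libraries came from separate mice or litters, so that p values measure the spread between these samples.

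The genes named are the 9 members, the other aquaporins, the 3 genes most like each member, and the 3 genes with the smallest p in each list. Marker genes named beside a result were picked from the lists after their values were seen. They are Pecam1, Emcn, Plvap, Adipoq, Adipor2, Pparg and the tissue checks. The untested receptor gene Avpr2 was picked in the same way. Alternatives changed the surrogate variables, the tool, the normalization, the filter, the replicate block, the libraries and the gene length. The MeDIP-seq and qRT-PCR data were not used here, and no protein sequence was used.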

Additional observations from a re-analysis of the deposited data

How the results depend on the processing

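The 9 log2 fold changes were recomputed in 24 other fits. Of 216 values, 178 kept their direction and their side of the threshold, 37 reversed, and 1, that of Aqp8 in DESeq2 with 2 surrogate variables, passed it (0.98, adjusted p = 0.000157). Adjusted p values of Aqp8 over the 24 fits ran from 0.000157 to 1. The causes of these changes were not tested, and members with few counts are limited by depth. DESeq2 called 101 genes (46 higher, 55 lower) with surrogate variables and 6 without, and edgeR called 8 genes without a filter on low counts. Leaving out a library gave 0 to 39 called genes (39 without CNTR replicate 1, 37 without PAMH F3 replicate 1) and, without surrogate variables, 2 without PAMH F3 replicate 1. Members called were 1 with DESeq2 and surrogate variables and 0 in the other alternatives. With median-ratio size factors or library totals, alternatives chosen after seeing the data like the GC correction, 0 members had groups that did not overlap.

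With the longest transcript as length, 5 of 8 steps in the order of levels passed and the log2 ratio of Aqp8 over Aqp5 was -0.37. Leaving out a library, 0 passed, the ratio of Aqp8 over Aqp5 ran from -0.050 to 0.22, and that of Aqp7 over Aqp11 from -0.25 to 0.20.

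Without surrogate variables, with 1 of them, and in DESeq2 without them, Aqp5 was at -0.16, -0.21 and -0.15 and Aqp9 at 0.049, 0.063 and 0.051. With the GC correction, Aqp5 was at 0.16 with 0 surrogate variables and at 0.18 with 2. Aqp9 was at 0.020 with 3 surrogate variables and at 0.026 with the GC correction and none. Leaving out a library, log2 fold changes ran from -0.22 to 0.66 for Aqp4, from -0.35 to 0.26 for Aqp5, from -0.48 to 0.21 for Aqp7, from -0.12 to 0.27 for Aqp9 and from -0.011 to 0.24 for Aqp11. Leaving out a library and all surrogate variables, the reversed values were -0.017 and -0.11 for Aqp3 (without CNTR replicates 1 and 3), -0.086 for Aqp4 and -0.0024 for Aqp11 (both without CNTR replicate 3), and 0.29 and 0.17 for Aqp7 (without CNTR replicate 1 and PAMH F3 replicate 4). For Aqp5 they were -0.34 and -0.16 without CNTR replicates 1 and 3 and -0.062, -0.32 and -0.34 without PAMH F3 replicates 1, 2 and 3. For Aqp9 they were 0.26 without CNTR replicate 1 and 0.13, 0.064 and 0.059 without PAMH F3 replicates 1, 2 and 4.

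The labels do not say whether replicate numbers pair the samples. Same-numbered libraries had correlations of deviations of 0.10, 0.10 and -0.25, and libraries of other numbers had -0.24 to 0.28. These values do not settle whether there was a pairing. With the replicate block and 0 surrogate variables, 0 genes and 0 members were called, 447 genes and 1 member had an unadjusted p under 0.05, Aqp8 was at 0.73, Aqp7 at 0.22 and Aqp9 at 0.061.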
